A study of Mus musculus with 8 samples.

Results

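The potassium channel genes of the mouse were taken as the protein-coding genes whose symbols start with Kcn, and 92 of the 21887 protein-coding genes in the RefSeq table of GRCm38.p6 were described, while 2 inward rectifier genes were not analysed here. They comprised 30 voltage-gated alpha subunits of the Kcna to Kcnh families, which include the electrically silent Kcnf1 and Kcng subunits, 13 inward rectifiers (Kcnj), 14 tandem-pore leak channels (Kcnk), 5 Kv7 channels (Kcnq) and 8 calcium- or sodium-activated channels with their Slo relatives (Kcnn, Kcnma, Kcnt and Kcnu). The remaining 22 were regulatory subunits and further electrically silent partners (Kcnab, Kcne, Kcnip, Kcnmb, Kcns, Kcnv and Kcnrg), called the other Kcn genes below. Binding of CTCF, a DNA-binding protein at which the cohesin ring stops and anchors chromatin loops, was measured by ChIP-seq in wild-type cortical neurons from embryonic day 16 Swiss-Webster mice, kept in culture for 13 days. Neurons either served as controls or were bathed in 50 µM NMDA, an agonist of a glutamate receptor class, for 10 minutes and then left for 50 minutes without drug. Each condition had 2 replicates, and the authors deposited 1 list of reproducible regions for each condition. Etoposide, a topoisomerase inhibitor named in the culture protocol, is not given as a treatment by any sample's labels. No marker of cell identity can be read from a list of CTCF regions, so the labelled cell type could not be checked.

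Potassium channels let potassium ions leave or enter the cell and so set the resting potential, end action potentials and shape firing. Voltage-gated channels open on depolarisation, inward rectifiers and leak channels act near rest, Kv7 channels carry the M-current that restrains repetitive firing, and calcium-activated channels follow spikes and calcium entry. Kcnip, Kcnab, Kcne and Kcnmb proteins change the gating or the surface delivery of the pore subunits they join.

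A region was given to a gene when its summit lay in the gene span or within 10 kb of it. Its signal is the authors' −log10 p-value, given below as the plain number, and its percentile is its rank by signal within its own list, with 100 for the strongest. A region counted as shared if 1 bp or more of it lay in a region of the other list, and otherwise as control-only or NMDA-only. With 1 list per condition there was no replicate test. The intervals given are 95% intervals for counting error alone, sequencing depth is unknown, and signals were compared between lists only as percentiles.

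Promoter windows, from 250 bases before to 50 bases after a start site, were available from RefSeq (GRCm38.p6) for 67 of the 92 genes. In 9 of these 67 genes (13.4%) a control region's summit fell inside such a window, against 8.93% of all genes with a window. The 6 stretches below, each of 280 bases on the gene's strand from 5′ to 3′, run from 250 bases before the start site to 30 bases from it on. They are shown because a control summit fell in each of them, 5 of them with a match to the letters named below and the Kcnd3 stretch since its region had another extent after NMDA. Capitals mark matches to AGNGGGCNC on either strand, a string of letters from the middle of the known CTCF motif that was chosen after these sequences had been seen.
Kcnh1: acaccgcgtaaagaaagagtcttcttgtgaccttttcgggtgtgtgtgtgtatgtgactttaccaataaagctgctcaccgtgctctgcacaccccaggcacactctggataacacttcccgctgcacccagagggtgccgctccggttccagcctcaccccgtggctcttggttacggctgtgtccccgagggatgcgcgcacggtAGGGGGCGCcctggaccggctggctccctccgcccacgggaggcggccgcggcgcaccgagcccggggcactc
Kcnh5: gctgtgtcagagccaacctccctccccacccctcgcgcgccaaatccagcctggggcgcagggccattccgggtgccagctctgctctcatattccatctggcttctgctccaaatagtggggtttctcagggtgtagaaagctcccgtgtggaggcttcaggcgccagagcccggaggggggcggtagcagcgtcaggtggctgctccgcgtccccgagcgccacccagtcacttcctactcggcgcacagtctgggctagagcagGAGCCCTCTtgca
Kcnj6: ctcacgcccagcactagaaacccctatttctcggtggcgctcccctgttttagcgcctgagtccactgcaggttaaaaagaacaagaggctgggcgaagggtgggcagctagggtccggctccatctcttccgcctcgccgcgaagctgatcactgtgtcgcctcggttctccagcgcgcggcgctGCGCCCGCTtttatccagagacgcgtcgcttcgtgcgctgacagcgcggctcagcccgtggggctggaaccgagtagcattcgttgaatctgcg
Kcnk13: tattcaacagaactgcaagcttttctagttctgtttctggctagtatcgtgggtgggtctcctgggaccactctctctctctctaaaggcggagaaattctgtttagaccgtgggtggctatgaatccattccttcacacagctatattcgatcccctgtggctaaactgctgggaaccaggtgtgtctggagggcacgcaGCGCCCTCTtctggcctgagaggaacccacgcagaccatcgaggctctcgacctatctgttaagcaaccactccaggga
Kcnk15: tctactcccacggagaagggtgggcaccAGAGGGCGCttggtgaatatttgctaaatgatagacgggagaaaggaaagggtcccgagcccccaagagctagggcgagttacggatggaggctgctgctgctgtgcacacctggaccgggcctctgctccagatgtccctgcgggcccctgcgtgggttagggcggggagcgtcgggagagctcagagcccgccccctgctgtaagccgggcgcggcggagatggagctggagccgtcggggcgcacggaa
Kcnd3: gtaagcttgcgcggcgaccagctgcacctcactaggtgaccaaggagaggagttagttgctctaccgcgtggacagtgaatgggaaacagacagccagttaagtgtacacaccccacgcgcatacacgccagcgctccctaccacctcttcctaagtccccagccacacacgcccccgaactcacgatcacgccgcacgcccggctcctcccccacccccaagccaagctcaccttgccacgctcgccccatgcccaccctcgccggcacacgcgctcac

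The Kcnh1 stretch lies at chr1:192190527-192190806 on the plus strand, and the Kcnh5 stretch at chr12:75177303-75177582 on the minus strand. That of Kcnj6 lies at chr16:94997667-94997946 on the minus strand and that of Kcnk13 at chr12:99964249-99964528 on the plus strand. Those of Kcnk15, at chr2:163853500-163853779, and Kcnd3, at chr3:105451640-105451919, are on the plus strand. In Kcnj6, which encodes the GIRK channel subunit Kir3.2, the control summit was 73 bp before the start site and 13 bp from the centre of the match, and the NMDA summit was 44 bp before the start site. In Kcnk13, a tandem-pore channel, the summits lay 5 bp after and 24 bp before the start site, 50 and 21 bp from the match. Kcnh1 and Kcnh5 encode ether-a-go-go channels, and their control summits lay 73 and 99 bp from the match. The Kcnd3 stretch holds no match.

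AGNGGGCNC occurred in 12 of the 89 windows of these genes (13.5%) and in 7.84% of all 21263 windows. Among windows with a control summit inside, it occurred in 5 of 9 member windows and in 26.8% of 1644 windows of all genes. A longer consensus of the CTCF core motif, with its variable positions left free and searched on either strand, was in 0 of the 89 windows and in 0.588% of all windows. With 1 mismatch allowed, a setting also chosen later, it was in 5 of 89 (5.62%) and in 10.2% of all. Kcnk13 was the gene among those shown that held it, with the mismatch at that last letter. CCCTC, the letters from which CTCF takes its name, was searched on both strands too and was in 86.5% of the member windows and in 69.6% of all windows. These matches describe letters in the windows and do not show a binding site.

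Of the 92 genes, 81 (88.0%, interval 79.8 to 93.2) had a control region, against 66.2% of all protein-coding genes. An NMDA region was present at 77 (83.7%, 74.8 to 89.9), against 67.4%. A shared region was present at 76 of the genes, against 63.7% of all genes. A control-only region was found at 18 (background 12.8%), or 19.6% of the genes, and an NMDA-only region at 19 (background 20.6%), or 20.7%. A region within 1 kb of an end of the gene span was found at 28 in the control list (background 29.0%) and at 26 in the NMDA list (background 29.5%). Of the promoter windows, those of 28 of 67 genes (41.8%) were covered by a control region, against 27.1% of genes with a window, and 27 (40.3%) by an NMDA region, against 27.4%. Covered windows were spread unevenly over the subfamilies, with 14 of 22 Kcna to Kcnh genes, 5 of 11 Kcnk genes, 3 of 5 Kcnn, Kcnm and Kcnt genes and 2 of 11 Kcnj genes in the control list, and 3 of 17 of the other Kcn genes.

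Potassium channel genes are long, with a median span of 32.7 kb against 17.2 kb for all protein-coding genes, so presence was also read within length classes. Of the 55 genes under 50 kb, 83.6% had a control region, against 59.96% of other genes of that length. Of the 18 over 200 kb, 94.4% had one, against 93.9%. A control-only region was at 12.7% of the genes under 50 kb, against 9.32% of other genes of that length. From 50 to 200 kb the shares were 15.8% against 21.5%, and over 200 kb 44.4% against 37.6%. For an NMDA-only region they were, in the same order, 12.7% against 16.4%, 31.6% against 31.4% and 33.3% against 48.5%. Counted per length, the short genes had a median of 4.03 control regions per 100 kb of widened span, against 2.72 for other short genes. The genes over 200 kb had a median of 0.771, against 1.02.

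**Figure D1:**
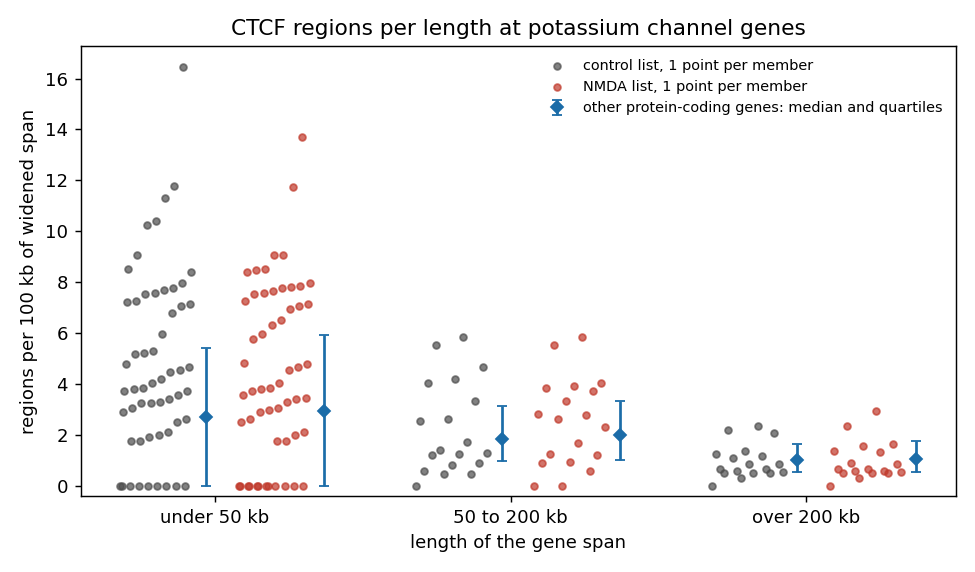
CTCF regions per 100 kb of widened gene span (vertical axis) for each of the 92 genes as 1 point per list, in 3 classes of gene length, beside the median and quartiles of other protein-coding genes (blue). The short genes lie above the blue median more often than below it, up to 16.5 per 100 kb, while most genes over 200 kb lie below it.

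The 92 widened spans held 206 distinct control regions and 207 distinct NMDA regions, 1.66 (1.44 to 1.90) and 1.67 (1.45 to 1.91) per 100 kb of merged span. Other protein-coding genes held 1.99 and 2.12 per 100 kb. This order turned with 50 kb added to each side instead of 10 kb, when potassium channel genes held 2.08 and 2.11 per 100 kb and other genes 1.79 and 1.91. Over the summed length, regions per 100 kb were highest for inward rectifiers and leak channels: Kcnj genes held 2.22 (1.38 to 3.40) in the control and 2.65 in the NMDA list, and Kcnk genes 2.22 (1.39 to 3.36) and 2.52. Kcnq genes had the fewest, with 1.22 (0.709 to 1.95) and 1.00 per 100 kb. Kcna to Kcnh genes held 1.52 and 1.47, Kcnn, Kcnm and Kcnt genes 1.66 and 1.61, and the other Kcn genes 1.69 in both lists. The intervals of all subfamilies overlapped in the control list, and in the NMDA list those of Kcnj (1.71 to 3.91) and Kcnq (0.548 to 1.68) did not. The subfamilies differ in length, with a median span of 300.3 kb for Kcnq and 29.7 kb for Kcnj, and the order depended on how length entered. With 50 kb added on each side the control values were 2.27 for Kcna to Kcnh, 2.24 for Kcnj and 2.15 for Kcnk, and taken gene by gene the control medians were 3.21, 2.14 and 2.96 per 100 kb.

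**Figure D2:**
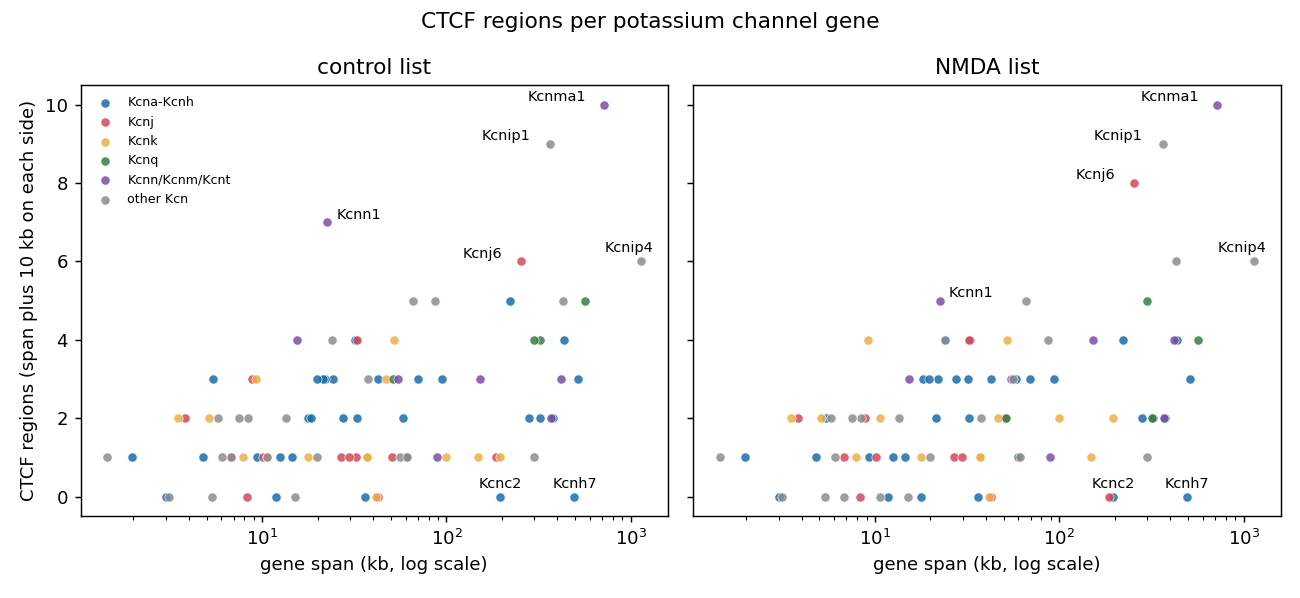
Number of CTCF regions per gene (vertical axis) against gene span in kb on a log scale, with 1 point per gene coloured by subfamily, for the control list (left) and the NMDA list (right). Kcnma1 had 10 regions in each list, Kcnn1 had 7 and 5 at a short span, and Kcnc2 and Kcnh7 had none.

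Regions at these genes ranked somewhat above the middle of their lists, with a median percentile of 56.8 (48.7 to 64.3) in the control and 58.7 (51.2 to 62.6) in the NMDA list, against 49.4 and 49.1 for regions at other genes. The regions from percentile 90 up in each list included 30 of the 206 control regions (14.6%) and 30 of the 207 NMDA regions (14.5%), against 10.9% and 10.7% of the regions of other genes. By subfamily the medians in the control and the NMDA list were 61.8 and 57.3 for Kcna to Kcnh, 52.1 and 54.9 for Kcnj, 46.2 and 43.2 for Kcnk, 58.8 and 64.5 for Kcnq, and 55.6 and 57.8 for Kcnn, Kcnm and Kcnt. Their intervals overlapped in both lists, from 22.6 to 83.8 for Kcnk and from 40.9 to 81.9 for Kcnq in the control list.

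Among voltage-gated pore subunits, Kcnh1 carried the strongest control region, with a signal of 1504 (percentile 99.5), and it stood at 672 (98.6) in the NMDA list. Kcnc1 encodes Kv3.1, the fast-spiking channel, and kept 3 regions, at percentiles 92.8, 91.9 and 43.7 in the control and 95.9, 93.7 and 57.3 in the NMDA list. Kcnd2, the A-type channel Kv4.2 of dendrites, has a span of 514 kb and had 3 shared regions. They stood at percentiles of 61.8, 60.7 and 28.7 in the control and 68.3, 60.7 and 40.4 in the NMDA list. Kcna1, an axonal Kv1 channel, had 1 shared region, at percentile 34.7 and then 47.8. Kcna7 had the most regions per length of the subfamily in the control list (11.8 per 100 kb of widened span), with no summit inside the gene itself. In the NMDA list Kcna2 had the most (9.07). The most regions over both lists were at Kcnd3 (5 control, 4 NMDA) and Kcnb2 (4 and 4).

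In all, 11 of the 92 genes had no region in either list. The other 81 (88.0%) had one, against 69.4% of all protein-coding genes. Kcnh7 (Erg3) spans 491 kb and Kcnc2 (Kv3.2) 196 kb, and neither had a region in either list. A control region was at 94.4% of the 18 potassium channel genes over 200 kb, against 93.9% of other genes of that length. From 50 to 200 kb it was at 94.7% of 19, against 85.7%, so such genes were not more frequent here. The other genes without a region were Kcna4, Kcna5, Kcng4, Kcnj14, Kcnj15, Kcnk5, Kcne4, Kcnv2 and Kcnrg, with spans from 3.00 to 42.7 kb. Kcnj3 (the GIRK subunit Kir3.1), Kcnab3 and Kcnmb1 each had 1 control region and no NMDA region. The Kcnj3 region had a signal of 49.4 (percentile 8.90) and that of Kcnab3 39.1 (2.58), both in the lower part of the control list.

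Among inward rectifiers, Kcnj6, with a span of 253 kb, had 6 control and 8 NMDA regions, the most of the subfamily. Its strongest region had a signal of 1235 in the control list (percentile 98.9), and the NMDA region over it had 602 (97.9). Its promoter region stood at 768 (96.0) and then 247 (82.1). The NMDA value of 247 split into 135 and 112 in the first and second replicate columns, which gave changes from the control percentile of −7.14 and −24.4 points. Kcnj6 also had 3 NMDA-only regions, with signals of 62.3, 34.6 and 31.7, and 1 control-only region with a signal of 41.9. Kcnj4 (Kir2.3) went from 1 control region, over its promoter window, to 4 NMDA regions, of which 3 were NMDA-only with signals of 45.1, 21.1 and 19.5. Kcnj11, the pore of the ATP-sensitive channel, had 1 region at each end, with percentiles of 98.7 and 77.0 in the control and 98.8 and 87.8 in the NMDA list. Kcnj10 (Kir4.1), best known from astrocytes, had 4 shared regions, and all stood higher in the NMDA list. Inside the gene they stood at 74.5, 59.4 and 34.6 in the control list and at 77.4, 75.8 and 56.4 in the NMDA list. The region between Kcnj10 and Kcnj9, counted for both genes, stood at 44.02 and then 54.8. Kcnj9 had the most regions per length of the subfamily in the control list (10.4 per 100 kb of widened span), with 1 of its 3 regions inside the gene.

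Among leak channels, Kcnk18 (TRESK) lay beside the strongest region of all 92 genes in the control list. Its signal was 1669 there (percentile 99.7) and 999.99 in the NMDA list (99.8). Kcnk2 (TREK-1) had 1 weak shared region (percentiles 15.5 and 9.16) and the strongest NMDA-only region of the 92 genes. This region, chr1:189252946-189253957, lay inside the gene with a signal of 72.8 (percentile 43.2), made of 34.6 and 38.2 in the 2 replicate columns, and the nearest control region was 88715 bp away. Kcnk4 (TRAAK) had the most regions per length of the 92 genes in the NMDA list (13.7 per 100 kb). Of its shared regions, all outside the gene, 1 moved from percentile 45.3 to 18.4 and another from 54.4 to 74.6, while the third kept its place at 91.3 and 91.5. Kcnk3 and Kcnk9 (TASK-1 and TASK-3) each had a control-only region at a gene end, with signals of 58.98 and 42.2. Kcnk3 also had 1 NMDA-only region, inside the gene, with a signal of 20.2 (percentile 1.74). Kcnk9 kept its other 2 regions, at percentiles 96.5 and 93.3 in the control and 97.5 and 95.3 in the NMDA list. Kcnk12 had 4 regions in each list, and Kcnk1 (TWIK-1) had 1, at percentile 22.7 and then 26.9.

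The Kv7 gene Kcnq5, with a span of 564 kb, had 5 control regions. The region over its promoter window stood at percentile 88.2 in the control and 61.6 in the NMDA list, with signals of 465 and 130, and the change was −38.9 points by the first and −20.7 points by the second replicate column. Kcnq3 had 4 control regions, all shared, at percentiles of 94.5, 81.9, 65.1 and 53.2, and these stood at 94.4, 77.9, 66.2 and 65.8 in the NMDA list. Kcnq1, the cardiac and epithelial member, had 2 control-only regions side by side near the lower end of its span, with signals of 68.6 and 33.5. Of these, 1 lay within 1 kb of the end. Its 2 other control regions were shared, the stronger at 96.0 and 97.4.

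Kcnma1, the pore of the BK channel, has a span of 713 kb. It had the most regions of all 92 genes, 10 in each list, of which 9 were shared. Of these 9, 7 had a higher percentile in the NMDA list, while the region at the upper end of the span had a lower one, 65.3 after 76.7, and 1 inside the gene stood at 63.8 after 64.3. Kcnn1 (SK1), with a span of 22.5 kb, was the densest of the 92 genes in the control list. It had 7 regions, of which 3 lay inside the span, or 16.5 per 100 kb of widened span. In the NMDA list 2 of its regions, 4953 and 3894 bp wide, each covered 2 control regions, which left 5. Kcnn2 (SK2) had 3 shared regions and 1 NMDA-only region, with a signal of 46.6, and Kcnn4 had 4 control and 3 NMDA regions. The sodium-activated channels Kcnt1 (Slack) and Kcnt2 (Slick) kept 3 and 2 regions, and 4 of these 5 had a lower percentile in the NMDA list.

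**Figure D3:**
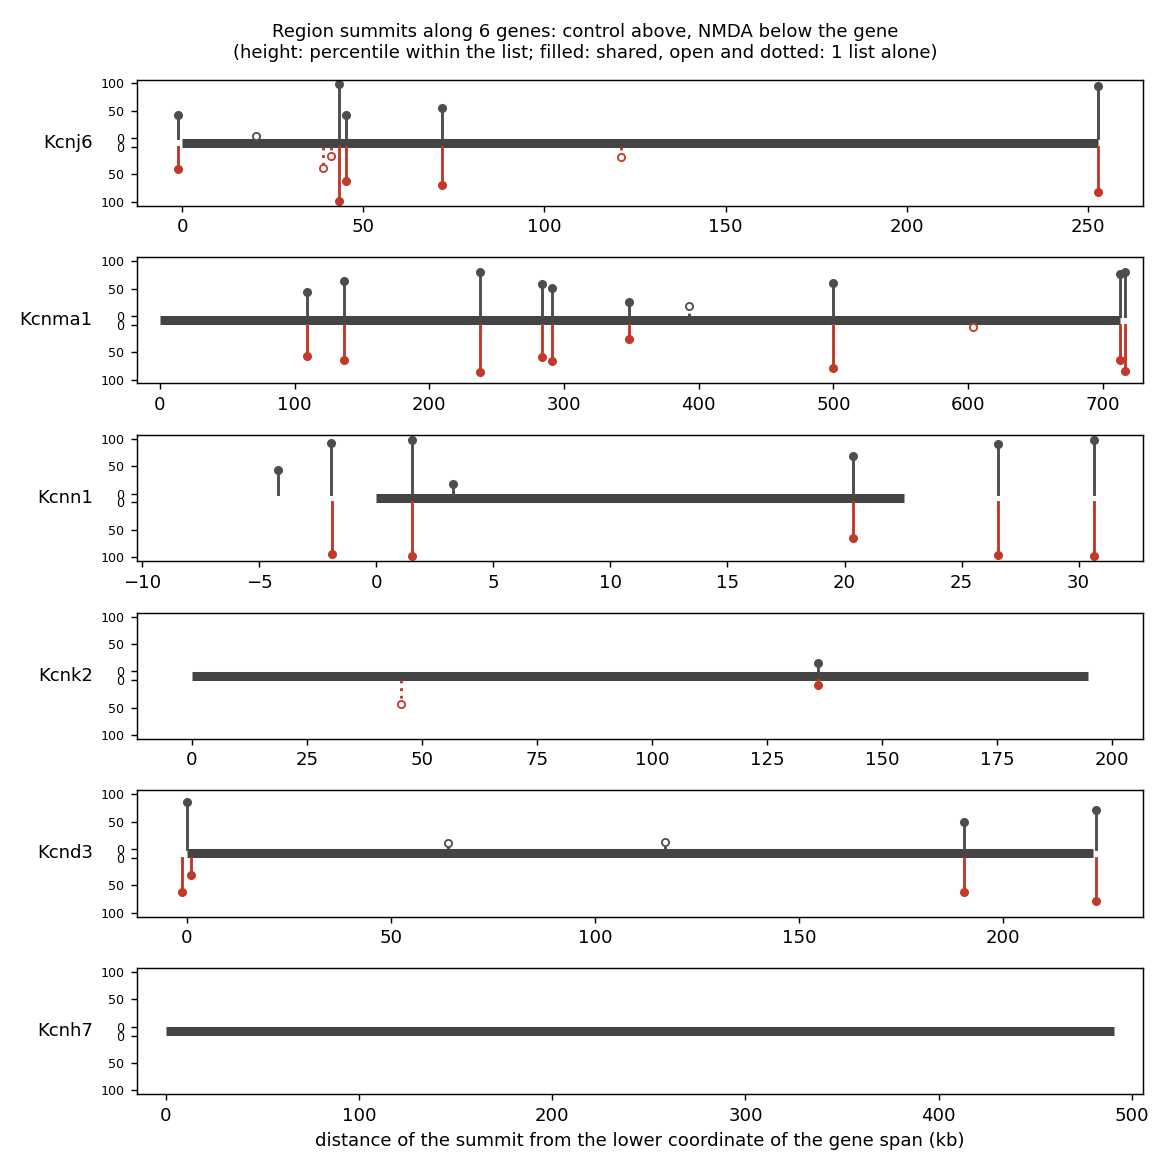
Summits of CTCF regions along 6 genes, with distance from the lower coordinate of the gene span in kb on the horizontal axis and the percentile within the list as stem length, control upward and NMDA downward. Filled points are shared and open points are in 1 list alone. Kcnj6 has 3 open NMDA points, Kcnma1 has 9 shared positions, Kcnk2 has the NMDA-only region at percentile 43.2, and Kcnh7 has none.

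Among the regulatory subunits, Kcnip1 (KChIP1) had 9 regions in each list and Kcnip4 (KChIP4), the longest of the 92 genes at 1136 kb, had 6. The strongest control region of these genes was at Kcnab2 (833, percentile 96.6), where an NMDA region of 4939 bp with a signal of 1059 (99.8) covered 2 control regions. Kcnab1 had 1 control-only region with a signal of 82.4 (percentile 25.7), the strongest control-only region of the 92 genes, and 2 NMDA-only regions with signals of 57.2 and 19.5. Kcnmb4, the neuronal subunit of the BK channel, had 1 shared and 2 NMDA-only regions, with signals of 48.2 and 30.7 for the latter. Kcnip3 and Kcnip2 kept 5 and 4 shared regions.

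Of the 206 control regions at these genes 20 (9.71%, 6.37 to 14.5) were control-only, and of the 207 NMDA regions 25 (12.1%, 8.32 to 17.2) were NMDA-only. In the whole lists these shares were 9.22% and 15.5%. Against all other regions of the lists the differences were 0.494 points (−2.86 to 5.31) and −3.46 points (−7.24 to 1.69), and both intervals include 0. By subfamily the NMDA-only share was 7 of 25 at Kcnj genes (28%, 14.3 to 47.6), 5 of 25 at Kcnk genes (20.0%), 3 of 32 at Kcnn, Kcnm and Kcnt genes (9.38%), 1 of 14 at Kcnq genes (7.14%) and 4 of 59 at Kcna to Kcnh genes (6.78%, 2.67 to 16.2). The control-only share was 4 of 17 at Kcnq genes (23.5%, 9.56 to 47.3), 3 of 21 at Kcnj genes (14.3%), 2 of 22 at Kcnk genes (9.09%), 5 of 61 at Kcna to Kcnh genes (8.20%) and 2 of 33 at Kcnn, Kcnm and Kcnt genes (6.06%).

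Of the 20 differences between pairs of the 5 subfamilies, 10 in each list, the interval of 1 did not include 0, with no adjustment for their number. The NMDA-only share was lower at Kcna to Kcnh genes than at Kcnj genes, by a difference of −21.2 points (−41.2 to −4.59). Of the 7 NMDA-only regions at Kcnj genes, 3 were at Kcnj6, 3 at Kcnj4 and 1 at Kcnj12. Without Kcnj6 the difference was −16.7 points (−40.8 to 0.0896), and without Kcnj6 and Kcnj4 it was −0.913 points (−26.9 to 10.4), both chosen after the data were seen. It was −1.79 points (−23.9 to 13.4) over regions with a reproducibility score of at least 830, and its interval also included 0 when shared meant a reciprocal overlap of 50% or summits within 100 bp. For Kcnq against Kcnn, Kcnm and Kcnt genes, the control-only share was 17.5 points higher (−1.99 to 41.6).

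**Figure D4:**
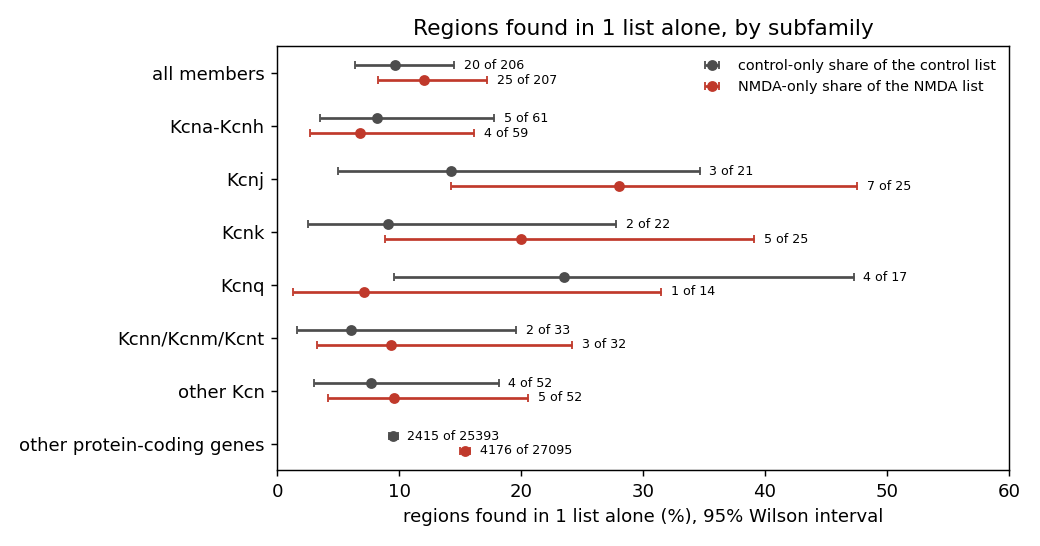
Share of regions found in 1 list alone (horizontal axis, %), with 95% Wilson intervals that cover counting error only, for the subfamilies, all 92 genes and other protein-coding genes. The Kcnj share of the NMDA list (7 of 25) and the Kcnq share of the control list (4 of 17) stand highest, with wide intervals.

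The regions found in 1 list alone were weak. The highest percentile among them was 43.2 in the NMDA list and 25.7 in the control list, and their medians were 15.98 and 11.8, against 62.2 and 61.9 for the shared regions of these genes. Over the whole lists the medians of NMDA-only and control-only regions were 12.3 and 9.51. After Kcnk2, the strongest NMDA-only regions were at Kcnj6 (62.3), Kcnk6 (58.1), Kcnab1 (57.2), Kcnmb4 (48.2), Kcng3 (48.0), Kcnk13 (47.2) and Kcnn2 (46.6). The second replicate column exceeded the first in 21 of the 25 NMDA-only regions, and in 74.8% of all NMDA-only regions of the list. At Kcng3, an electrically silent Kv6 subunit, the columns held 13.2 and 34.8, and at Kcnk6 they held 29.0 and 29.2. After Kcnab1, strong control-only regions were at Kcnip4 (72.3), in Kcnip1 near Kcnmb1 (71.6), at Kcnq1 (68.6), Kcnma1 (64.8) and Kcnk3 (58.98). Kcnd3 (Kv4.3) held 2 more, with signals of 54.7 and 54.2.

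The ends of the genes held 6 control-only and 2 NMDA-only regions. Of the 33 control regions within 1 kb of an end of a potassium channel gene, 6 (18.2%, 8.61 to 34.4) were control-only, among them those at Kcnab3, Kcnk3, Kcnk9, Kcnn3 and Kcnq1. Of the 30 NMDA regions there, 2 (6.67%, 1.85 to 21.3) were NMDA-only, at Kcnj12 and Kcnj4. The intervals overlap, and at ends of any gene the shares over the regions of other genes were 11.5% control-only and 13.4% NMDA-only. Inside the genes 13 of 109 control and 16 of 111 NMDA regions were found in 1 list alone, and outside them 1 of 64 and 7 of 66. Placed against any protein-coding gene, regions of the 92 genes inside a gene were in 1 list alone in 11.6% (control) and 13.1% (NMDA), against 9.82% and 16.7% for other genes. Outside all genes the shares were 0% and 9.30%, against 5.97% and 13.8%.

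For 169 control regions at these genes exactly 1 NMDA region overlapped and the reverse, so their percentiles could be compared pair by pair. The median change from control to NMDA was 1.34 points, with 103 of 169 higher (60.9%). Over all 29350 such pairs of the lists it was 2.39 points, with 61.9% higher. The summits of a pair were 20 bp apart in the median, and within 100 bp in 161 pairs (95.3%). Over all pairs of the lists the values were 17 bp and 94.3%. By subfamily the median change was 3.99 points for Kcnj, 1.12 for Kcna to Kcnh, 0.747 for Kcnk, −0.0459 for Kcnq, −0.324 for Kcnn, Kcnm and Kcnt and 4.01 for the other Kcn genes. Large differences downward were at Kcnk4 (−26.8 points), Kcnq5 (−26.6), Kcnh5 (−26.1) and Kcna2 (−22.7). Of these, the Kcna2, Kcnh5 and Kcnq5 regions covered a promoter window. The Kcnk4 region lay outside that gene, within 1 kb of an end of another gene. The largest differences upward were at Kcne1l (24.9 points), Kcnh4 (23.1), Kcnj10 (21.8), Kcnk4 (20.2) and Kcnma1 (18.8), none of them within 1 kb of an end of the gene. At Kcna2 the change was −40.6 points by the second replicate column and −1.09 points by the first. At Kcnh5 the change was −37.3 points by the second replicate column and −11.99 points by the first.

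Regions at the ends of potassium channel genes stood lower, in the median, in the NMDA list than in the control list, whereas those inside or outside the genes stood slightly higher. The 25 pairs at an end, from 22 genes, had a median change of −6.36 points with 7 higher, the 89 inside 1.70 points with 55 higher, and the 55 outside 3.99 points with 41 higher. Ranked by the first replicate column alone, the pairs at an end had a median change of −5.33 points with 8 of 25 higher, and by the second alone −8.34 points with 5 of 25 higher. Lower ranks at an end were found in several families: Kcnk15 moved from percentile 83.8 to 62.7, Kcnh4 from 67.7 to 49.8, Kcng2 from 82.8 to 65.5, Kcna6 from 46.4 to 30.5, Kcnf1 from 85.02 to 69.4 and Kcnip4 from 95.4 to 81.6. Both regions of Kcnj11 and those at the ends of Kcnk9, Kcnn4, Kcnd3 and Kcnh8 went the other way, by 0.103 to 10.7 points, as did 1 of the 2 at Kcnk12.

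The same measure was taken for other genes, counting the ends of any protein-coding gene. There, 33 pairs of potassium channel genes had a median change of −5.53 points with 9 higher (27.3%), and 5029 pairs of other genes −0.542 points with 45.4% higher. The control regions at an end of a potassium channel gene had a median percentile of 71.3, against 53.2 for those inside, so changes were also read within ranges of the control percentile. The median changes at ends were −4.76 points for 8 pairs below 50, −11.4 for 15 pairs from 50 to 90 and −2.82 for 10 pairs from 90 on. For other genes they were 1.66, −3.43 and −0.697 points. For pairs with the control summit inside a promoter window, the median was −10.2 points with 1 of 8 higher at potassium channel genes, and −1.37 points with 35.1% of 1323 higher at other genes. The 8 were the 5 genes with a match shown above and Kcnh4, Kcnj4 and Kcnh8, and Kcnh8 was the exception, at 8.14 and then 12.9. The pairs at Kcnh4, Kcnh5, Kcnh8, Kcnj6 and Kcnk15 are also among the 25 pairs at an end. The promoter comparison is therefore not independent of that at gene ends. The promoter comparison and the ranges were added after the changes at gene ends had been seen, and pairs are not replicates of the treatment.

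**Figure D5:**
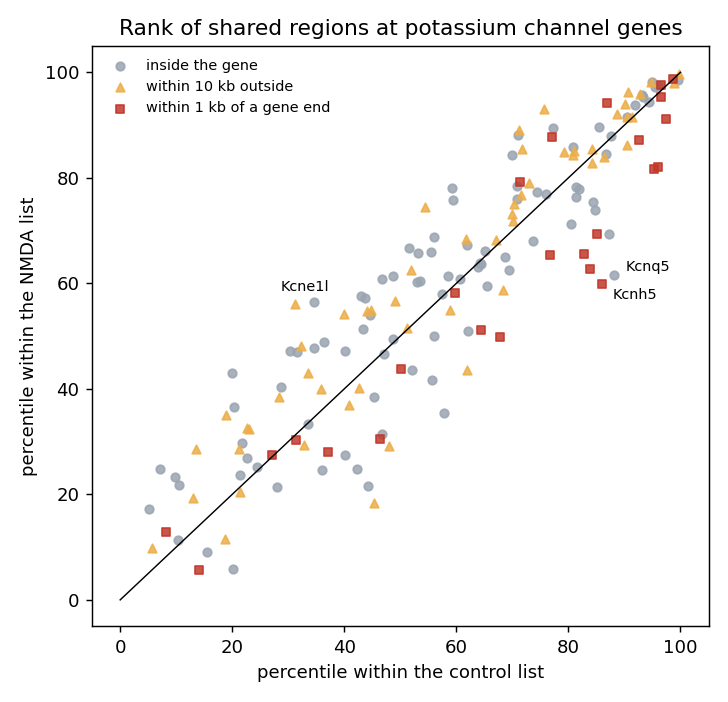
Percentile within the control list (horizontal axis) against percentile within the NMDA list (vertical axis) for the 169 paired regions of the 92 genes, with the line of equal rank. Red squares mark regions within 1 kb of a gene end, of which 18 of 25 lie below the line.

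Some regions differed between the lists in extent rather than in presence. At 4 genes (Kcnd3, Kcnip4, Kcnj6 and Kcnn3) 1 control region lay over 2 NMDA regions. The Kcnd3 region spanned 4029 bp around the start site, chr3:105450093-105454121, with a signal of 425 (percentile 85.8) and its summit 11 bp before the start site. The NMDA regions at chr3:105449865-105451450 and chr3:105452235-105454166 had signals of 134 and 49.0 (percentiles 62.3 and 30.6) and left the promoter window printed above uncovered. The reverse, 1 NMDA region over 2 control regions, occurred at Kcna7, Kcnab2, Kcnj6, Kcnmb3 and Kcnn4 and at 2 places at Kcnn1. All of these count as shared by the 1 bp rule. The share of such regions over the whole lists is not given here, so they cannot be called particular to these genes.

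Channel partners and relatives that the symbol rule leaves out were read the same way from a list of 21 genes. Of these, 19 had a control and 17 an NMDA region, and 6 had a control-only and 7 an NMDA-only region. Lrrc38 and Lrrc55 had no region in either list. Over all protein-coding genes the shares were 66.2% with a control, 67.4% with an NMDA, 12.8% with a control-only and 20.6% with an NMDA-only region, and several of the listed genes are long. Dpp6, the dendritic partner of Kv4 channels, had 15 control and 17 NMDA regions, and Dpp10 had 6 and 7. Abcc8, the sulfonylurea receptor next to Kcnj11, shared that gene's strongest region and had 3 shared regions in all. Abcc9, the receptor next to Kcnj8, had 2 control-only regions and no NMDA region. Cntnap2, which anchors Kv1 channels beside the node of Ranvier, had 11 control and 8 NMDA regions, of which 3 were control-only. Hcn2, a cation channel opened by hyperpolarisation, has a span of 19.5 kb and had 7 regions in each list. That is 17.7 per 100 kb of widened span, close to the 16.5 of Kcnn1.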

How the data were processed

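CTCF ChIP-seq region lists were available for control and NMDA-treated neurons, 1 per condition over 2 replicates, and the input libraries were not analysed here. The tools listed in the submitters' processing notes are BWA, MACS2, Trimmomatic, FastQC and SAMtools, without roles, and the builds are mm10 and GRCm38.p6. Tool versions and parameters were not given in the sources used here. The lists have the layout of the irreproducible discovery rate procedure. The authors deposited a −log10 p-value for each region, called its signal here, and a reproducibility score of at least 540. In the NMDA list the deposited −log10 p-value equalled the sum of 2 replicate columns (tolerance 0.001) in 36186 of 36186 regions. Which replicate each holds is not stated, and the control list has none.

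Regions off the assembled chromosomes (5 control, 7 NMDA) were left out, which kept 33815 and 36186. Summits were placed in RefSeq gene spans widened by 10 kb, densities used merged spans, and shares were given Wilson intervals and differences Newcombe intervals (Python 3.11.15, pandas 2.3.3, numpy 2.4.6, scipy 1.17.1). The gene table has no strand, so both ends of a span were used, and exons were not used here. The count of regions in a gene was tested on simulated summits, and the class step on the control list with regions removed and shifted. The rank step was not tested in this way. No p-value was computed, since there was 1 list per condition. The labels call the replicates biological, and depth was not available for either list.

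Named were the 4 genes with the most regions in each subfamily, the 2 with the most per length, those with the strongest region of each list, the 10 strongest regions of each list-only class, the 5 largest changes of rank either way, genes with a covered promoter window, long genes without a region and 24 neuronal channels fixed by name. Some members that this rule would name are counted but not reported here by name. Other genes in the text were named after their values were seen. The members and lists were chosen with earlier results of these data known.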

Additional observations from a re-analysis of the deposited data

How the results depend on the processing

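Over 12 alternatives, 218 of 247 recomputed values kept their direction and their side of 0, or stayed within the interval of the reported value or, for counts, within 1.5 times of it; 20 moved further, 5 lost and 1 gained an interval without 0, and 3 turned sign. The 3 that turned are the control-only share of all 92 genes minus that of all other regions: −0.517 points with 50 kb added on each side, −0.321 at a score of at least 830 and −0.472 with the NMDA list limited to as many regions as the control list, all with intervals that include 0. The same difference in the NMDA list was −4.29 points (−7.03 to −0.837) with 50 kb added. The difference between Kcna to Kcnh and Kcnj genes in the NMDA-only share was −1.79 points at a score of at least 830, −16.1 at a reciprocal overlap of 50%, −16.7 with summits within 100 bp, −16.7 without Kcnj6 and −0.913 without Kcnj4 and Kcnj6, and its interval then included 0 each time.

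Regions per 100 kb of all 92 genes were 1.21 in both lists with no added distance, 2.08 (control) and 2.11 (NMDA) with 50 kb added, and 1.37 in the control list at a score of at least 830. For Kcna to Kcnh genes they were 1.02 and 0.995 with no added distance and 2.27 and 2.32 with 50 kb. The control-only share of all 92 genes was 5.29% at a score of at least 830, 16.02% at a reciprocal overlap of 50% and 18.9% with summits within 100 bp. It was 18.03% for Kcna to Kcnh genes with summits within 100 bp, and 24.2% and 21.2% for Kcnn, Kcnm and Kcnt genes at a reciprocal overlap of 50% and with summits within 100 bp. At a score of at least 830 it was 0% for Kcnj genes (interval to 18.4%) and 7.69% for Kcnq genes. The NMDA-only share of all 92 genes was 19.3% with summits within 100 bp and 8.16% with the limited NMDA list, and that of Kcnj genes was 7.69% without Kcnj4 and Kcnj6. The settings without Kcnj genes were chosen after seeing the data. Among the 218, the NMDA-only share still went from 9.38% to 21.9% for Kcnn, Kcnm and Kcnt genes at a reciprocal overlap of 50%, from 28% to 15% for Kcnj genes at a score of at least 830, and from 6.78% to 15.3% for Kcna to Kcnh genes with summits within 100 bp. With no added distance the median control percentile of Kcnk regions went from 46.2 to 27.02, and the genes with a control region from 81 to 58. The cause of these changes was not tested.

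No paired analysis was possible because each condition has 1 list over its replicates and no test was run. No replicate was left out for the same reason. Ranking by the signal value column was not run, since it holds the same value in every region. Depth is unknown, and a region not in a list is not shown to be unbound.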
